A study of Mustela putorius furo with 10 samples.

Results

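Interferon response genes were compared in peripheral blood mononuclear cells (PBMC), the lymphocyte and monocyte fraction of blood, of ferrets kept in the cold or at room temperature. A list of 54 genes was looked up by symbol through the RefSeq gene name of the sequence accession that each array probe carries. Of these, 33 were found and 32 entered the comparison, out of 26303 genes measured in all. The condition for entry was a Cy3 signal well above background, as flagged by the scanner software, on at least 4 of the 10 arrays. Of the 32 genes, 31 met it on all 10 arrays and RSAD2 on 6. ZBP1, a sensor of nucleic acids in the Z form, was found but was above background on at most 3 arrays, with log2 ratios between -0.08 and 0.16, and was left out. The other 21 symbols had no match and were not analysed here: IFNAR2, IFNGR2, IRF1, IRF7, EIF2AK2, ADAR, IFIT1, OAS1, OAS2, OAS3, HERC5, MX2, GBP5, SAMD9, PLSCR1, XAF1, IFI44, SP110, PARP14, DTX3L and CXCL10.

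All animals were male ferrets (Mustela putorius furo) aged 3 months. The control group of 6 stayed at 22 °C, and the cold group of 4 was acclimatised to 4 °C for 1 week. Single housing is named in the study's methods at the end of the sentence on both groups, after the cold group. Whether it also covers the controls is not clear from that wording. Each ferret had 1 custom 2-colour Agilent array, on which its own PBMC RNA was labelled with the green dye Cy3 and a common pool of PBMC and other tissue RNA with the red dye Cy5. A level below is therefore the log2 ratio of the ferret's RNA to that pool, and a difference is the mean of the cold arrays less the mean of the control arrays on that scale.

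Interferons are secreted proteins that infected or alarmed cells release, and nearly every nucleated cell can answer them. Type I interferons bind the IFNAR1 and IFNAR2 receptor and type II interferon binds the IFNGR1 and IFNGR2 receptor, which activate the kinases JAK1, TYK2 and JAK2. STAT2 is then phosphorylated, and a complex that holds STAT2 and IRF9 switches on a large set of antiviral genes, while SOCS1 damps the signal. Blood mononuclear cells carry this machinery, and the set is often read in them as a sign of interferon exposure.

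Of the 24 antiviral effectors and nucleic acid sensors, 18 had a lower mean in cold PBMC, but no gene of the list passed the adjusted threshold. For these genes 3 of the 4 cold arrays were low and cold replicate 4 lay within the range of the controls. Control replicates 2 and 4 were low too, with medians of -0.26 and -0.20 from the control mean. Lower means in cold than in control PBMC were seen for 19 of the 32 genes and higher means for 13. The median difference was -0.16 beside -0.01 over all genes, of which 52.0% were lower. At an adjusted p (limma, Benjamini-Hochberg) under 0.05, 0 of the 32 genes were called, and the background over all genes was also 0%. The lowest adjusted p among them was 0.132, for MX1, and the lowest over all genes was 0.0576. At an unadjusted p under 0.01, the threshold named in the study's methods, 0 of the 32 were called, beside 8.64% of all genes, 3.43% in the lower direction. At an unadjusted p under 0.05 there were 5, of which MX1, IFIT3, DDX60 and ISG15 were lower and NMI was higher, beside 24.7% of all genes, 12.5% lower and 12.2% higher. The cold and control arrays overlapped for all 32 genes, whereas they did not overlap for 5.22% of all genes.

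The brightness of the reference channel differed between arrays. The share of spots with Cy5 well above background was 27.0 to 54.9% on the control arrays (median 34.8%) and 40.5 to 64.0% on the cold arrays (median 53.8%), whereas Cy3 ranged from 50.4 to 63.5% and from 58.0 to 61.1%. The ferret channel was therefore also compared alone, as quantile-normalised log2 Cy3 intensity. In this measure 25 of the 32 genes lay lower in cold PBMC and 7 lay higher. The median difference was -0.39 beside -0.04 over all genes, of which 57.1% were lower. At an unadjusted p under 0.01, 4 of them were called, all lower, namely MX1, IFIT2, BST2 and IFI6, beside 9.87% of all genes and 4.36% for the lower direction. After adjustment 0 of the 32 were called in Cy3 alone, with a lowest adjusted p of 0.0673 (limma), beside 2.83% of all genes, and the groups overlapped for all 32, beside 7.02% of all genes that did not overlap. In Cy5 alone, which held the same pool on every array, the differences of the 32 genes lay between -0.17 and 0.17 with a median of 0.02, and 0 of the 32 passed the unadjusted limma threshold of 0.01. None of the spots behind the 32 genes was saturated in either channel.

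By role, 2 parts of the list lay on either side of 0. The 8 signalling genes, namely receptors, kinases, transcription factors with a partner, and the feedback inhibitor SOCS1, had a median difference of 0.10, and 1 of them, JAK1, was lower. The 24 sensors and effectors had a median of -0.29, which was -0.47 without cold replicate 4 and -0.19 without control replicate 3, and 18 of them were lower. In Cy3 alone these medians were 0.08 with 2 of 8 lower, and -0.59 with 23 of 24 lower. The median of the sensors and effectors was below 0 and below that of all genes under every alternative computed, while the median of the signalling genes changed sign under 3 of them, to -0.50 with arrays centred on their median (which puts all genes at -0.43), -0.07 in the authors' deposited table and -0.07 with each array's ratios scaled to a common spread. These counts describe the list and were not tested as sets.

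**Figure D1:**
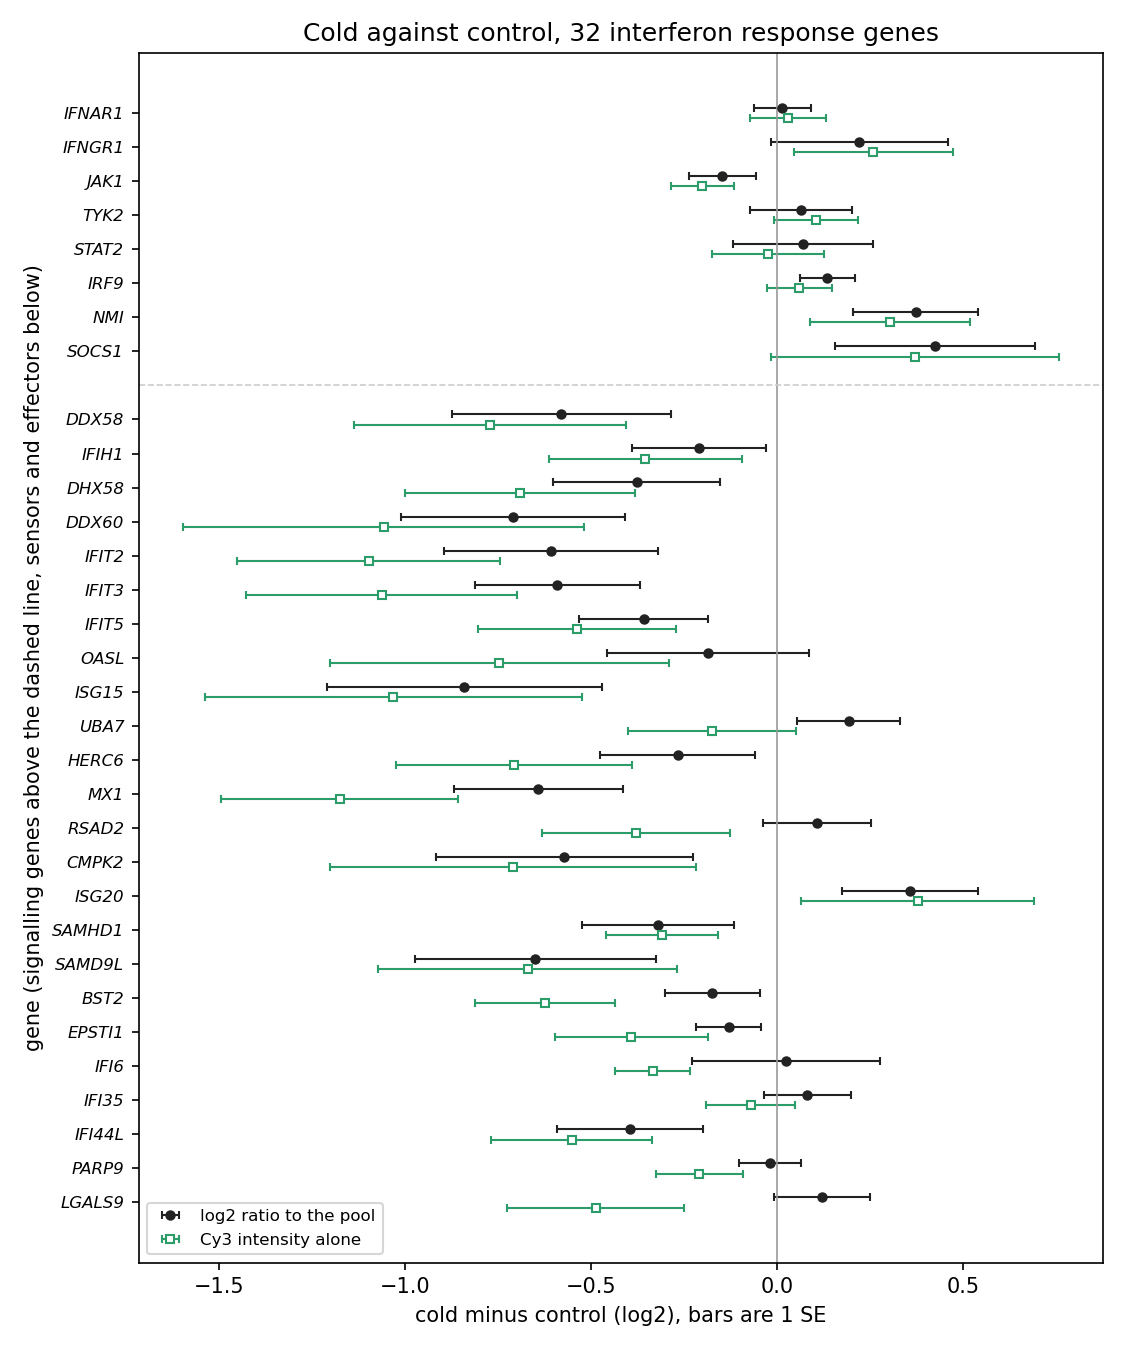
Difference between cold and control (log2, horizontal axis) for the 32 interferon response genes (vertical axis), as the ratio to the reference pool (filled circles) and as Cy3 intensity alone (open squares), with bars of 1 standard error from limma over 6 control and 4 cold arrays. The 8 signalling genes above the dashed line lie around 0 or to its right except JAK1, and 18 of the 24 sensors and effectors lie to the left in the ratio and 23 of 24 in Cy3 alone.

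Among the receptors and kinases, differences in the ratio lay between -0.15 and 0.22. IFNAR1, a chain of the type I interferon receptor, was at 0.12 ± 0.04 (SD, n = 6) in control and 0.13 ± 0.14 (n = 4) in cold PBMC, a difference of 0.01 (95% interval -0.16 to 0.18). IFNGR1, the ligand-binding chain of the type II receptor, was at 0.72 ± 0.18 and 0.94 ± 0.65, with the cold arrays running from 0.22 to 1.73, so that the 4 cold ferrets spanned a wider range than the 6 controls. The kinase JAK1, which serves both receptors, differed by -0.15 (SE 0.09), and TYK2, the kinase on the type I receptor, by 0.06 (SE 0.14). JAK1 differed by -0.20 (SE 0.08) in Cy3 alone and by -0.38 (unadjusted limma p 0.0161) with the ratios scaled per array. None of these passed the test at either threshold.

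The factors that carry the signal to the nucleus lay level or slightly higher. STAT2 was at 0.87 ± 0.31 (SD, n = 6) in control and 0.94 ± 0.35 (n = 4) in cold PBMC, and its 2 target sequences differed by 0.04 and 0.09. IRF9, the DNA-binding partner of STAT2, differed by 0.13 (SE 0.07), with control arrays from 0.03 to 0.20 and cold arrays at 0.18, 0.20, 0.35 and 0.37. Its exact two-sided permutation p was 0.038 over the 210 splits of the arrays, whose smallest possible p is 0.00476. From limma its unadjusted p was 0.0947 and its adjusted p 0.277. Its Cy5 signal was above background on only 3 arrays, and in Cy3 alone its difference was 0.06 (SE 0.09). Where only probes above background on all 10 arrays were kept, the IRF9 difference was 0.33 with an unadjusted limma p of 0.00670, and the groups no longer overlapped. That value is the highest of its 3 kept probes, which ran from 0.00046 to 0.33. In that setting 9.36% of all genes were under 0.01, 5.78% in the higher direction, and 5.55% did not overlap.

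NMI, an interferon-induced partner of the STAT proteins, lay between 0.26 and 1.15 on the control arrays with a median of 0.60, and at 0.73, 0.96, 1.16 and 1.05 on the cold arrays. All cold values lay above the control median, though within or just past the control range. The difference was 0.37 (SE 0.17, unadjusted limma p 0.0489, adjusted p 0.200), and without control replicate 3, the highest control array for this gene, it was 0.48 with an unadjusted limma p of 0.00497. The NMI difference was 0.30 without control replicate 2, 0.30 (SE 0.21) in Cy3 alone, and 0.11 (unadjusted limma p 0.562) with the ratios scaled per array.

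SOCS1, which blocks JAK kinases and is itself induced by interferon, ranged from -0.51 to 0.20 on the control arrays with a median of -0.03, and was at 0.50, -0.12, -0.24 and 1.30 on the cold arrays. Cold replicates 1 and 4 lay above every control and cold replicates 2 and 3 inside the control range. The mean difference was 0.42 (SE 0.27, adjusted p 0.347 from limma), and the 4 probes gave 0.29 to 0.50. It rested on cold replicate 4, without which the difference was 0.11, and without cold replicate 3 it was 0.62.

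The 4 sensors of viral RNA and their relatives were all lower, with a median of -0.48 in the ratio and -0.73 in Cy3 alone. DDX58 encodes RIG-I, the helicase that senses RNA with a 5′ triphosphate. It ranged from -0.37 to 0.59 on the control arrays with a median of 0.22, and was at -0.74, -0.47, -0.93 and 0.51 on the cold arrays. Cold replicates 1, 2 and 3 lay below every control and cold replicate 4 near the top of the controls. The difference was -0.58 (SE 0.29, adjusted p 0.245 from limma), and all 16 probes, spread over 4 target sequences, were lower in cold, between -0.88 and -0.21.

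DDX60, a helicase that cooperates with RIG-I-like receptors, ranged from -0.71 to 0.71 on the control arrays with a median of -0.27, and was at -1.34, -0.65, -1.34 and -0.16 on the cold arrays. Cold replicates 1 and 3 lay below every control. Its difference was -0.71 (SE 0.30, unadjusted p 0.0381 and adjusted p 0.180 from limma), and it rests on 4 probes, since the remaining 20 of its 24 probes were too dim. DHX58 (LGP2), a regulator of the same receptors, differed by -0.38 (SE 0.22), and IFIH1 (MDA5), the sensor of long double-stranded RNA, by -0.21 (SE 0.18), with the 2 groups overlapping in both. When 1 array was left out, DHX58 ran from -0.60 (without cold replicate 4) to -0.24 (without cold replicate 3), and IFIH1 from -0.35 (without cold replicate 4) to -0.10 (without cold replicate 2).

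The measured IFIT genes, whose proteins bind foreign RNA and hold back its translation, were lower in all 3 cases. IFIT2 ranged from 0.15 to 1.25 on the control arrays with a median of 0.87, and was at 0.59, -0.10, -0.54 and 0.89 on the cold arrays, a difference of -0.61 (SE 0.29, adjusted p 0.217 from limma). IFIT3 ranged from 0.09 to 0.74 with a median of 0.22 in control PBMC, and was at -0.12, -0.40, -0.82 and 0.36 in cold PBMC, a difference of -0.59 (SE 0.22, unadjusted p 0.0217 and adjusted p 0.144 from limma). For IFIT3, cold replicates 1, 2 and 3 were below every control, and for IFIT2 this held for cold replicates 2 and 3. In Cy3 alone the differences were larger, -1.10 (SE 0.35) for IFIT2, with an unadjusted p of 0.00957 and an adjusted p of 0.0994 from limma, and -1.06 (SE 0.36) for IFIT3. IFIT5 ranged from -0.32 to 0.38 on the control arrays with a median of 0.05, and was at -0.35, -0.39, -0.72 and 0.12 on the cold arrays, a difference of -0.36 (SE 0.17) in the ratio.

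OASL, a relative of the oligoadenylate synthetases that boosts RIG-I signalling, differed by -0.19 (SE 0.27), but its 2 target sequences disagreed, at -0.33 and 0.01. Its cold arrays ran from -0.47 to 1.13, past the control range on both sides. The OASL difference was -0.75 (SE 0.45) in Cy3 alone, and in the ratio it turned to 0.064 without cold replicate 3.

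ISG15, the ubiquitin-like protein that is among the strongest interferon-induced products, had the largest difference of the list. It ranged from -1.16 to 0.72 on the control arrays with a median of -0.11, and was at -1.13, -0.63, -1.54 and -0.94 on the cold arrays. All 4 cold ferrets lay in the lower part of the control range or below it. Control replicates 2, 4 and 5 lay there too, at -0.51, -1.03 and -1.16. The difference was -0.84 (SE 0.37, unadjusted p 0.0441 and adjusted p 0.191 from limma), with an exact two-sided permutation p of 0.095, and all 4 probes were lower, between -1.07 and -0.61. The enzymes that attach and handle ISG15 did not share 1 direction in the ratio, whereas both had lower means in Cy3 alone. HERC6, a ligase for ISG15 in some mammals, differed by -0.27 (SE 0.21) in the ratio and -0.71 (SE 0.32) in Cy3 alone, and UBA7, its activating enzyme, by 0.19 (SE 0.14) in the ratio and -0.17 (SE 0.23) in Cy3 alone. Cold replicate 4 weighed on both ratios, with HERC6 at -0.48 and UBA7 at 0.065 without it, against -0.17 and 0.27 without cold replicate 3.

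MX1, the dynamin-like GTPase that traps viral nucleocapsids, had the lowest p of the list. It ranged from 0.36 to 1.47 on the control arrays with a median of 0.65, and was at 0.37, -0.16, -0.22 and 0.55 on the cold arrays. Cold replicates 2 and 3 were below every control, and cold replicates 1 and 4 lay within the lower part of the control range. The difference was -0.64 (SE 0.23, unadjusted p 0.0164 and adjusted p 0.132 from limma), the exact two-sided permutation p was 0.057, and the 4 probes gave -1.15 to -0.35. Without control replicate 6 the difference was -0.72 with an unadjusted limma p of 0.00992, beside 6.90% of all genes under 0.01 and 2.18% in the lower direction. Without control replicate 3 it was -0.50. In Cy3 alone it was -1.17 (SE 0.32, unadjusted p 0.00336 and adjusted p 0.0673 from limma). When each array's ratios were divided by their own spread, an alternative chosen after the data were seen, the difference was -0.81 with an unadjusted limma p of 0.00587 and the groups of MX1 no longer overlapped. SAMHD1 also passed an unadjusted 0.01 on that scale, at -0.81, and the background there was 5.91% of all genes, 2.22% in the lower direction.

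**Figure D2:**
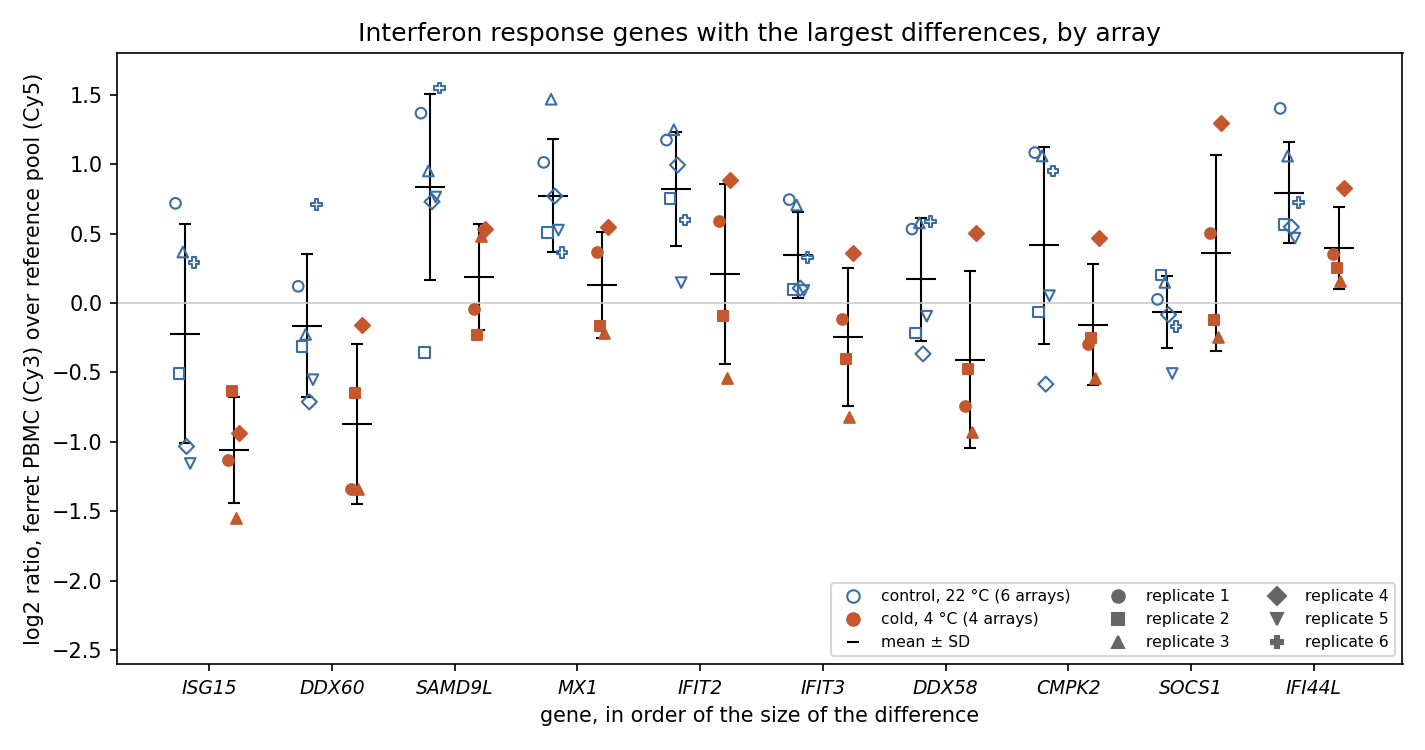
Log2 ratio of ferret PBMC to the reference pool (vertical axis) on each array for the 10 genes with the largest differences (horizontal axis), with control arrays as open and cold arrays as filled symbols, the symbol shape giving the replicate number and black bars the mean ± SD. In 9 of the 10 genes the cold mean lies below the control mean, and cold replicate 4 (diamond) is the highest cold array in every one of them except ISG15, where cold replicate 2 is.

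SAMD9L, a restriction factor that limits translation, ranged from -0.35 to 1.55 on the control arrays with a median of 0.86, and was at -0.05, -0.23, 0.48 and 0.54 on the cold arrays. The cold values all lay below the control median, and the single control below them was control replicate 2. The difference was -0.65 (SE 0.32, adjusted p 0.236 from limma). Without control replicate 2 it was -0.89 with an unadjusted limma p of 0.00225 and no overlap between the groups. In that run 5.72% of all genes were under 0.01, 2.20% in the lower direction, and 5.91% did not overlap. Without control replicate 6 the SAMD9L difference was -0.51.

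CMPK2, a mitochondrial nucleotide kinase induced with RSAD2, ranged from -0.58 to 1.08 on the control arrays with a median of 0.50, and was at -0.29, -0.25, -0.54 and 0.47 on the cold arrays, a difference of -0.57 (SE 0.35, adjusted p 0.324 from limma). The control arrays alone covered the whole range of the cold ones. IFI44L, an interferon-induced protein with antiviral and feedback roles, ranged from 0.47 to 1.40 with a median of 0.64 in control PBMC, and was at 0.35, 0.25, 0.16 and 0.83 in cold PBMC, a difference of -0.40 (SE 0.20, adjusted p 0.234 from limma). Cold replicates 1, 2 and 3 lay below every control.

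The remaining 9 effectors differed by -0.32 to 0.36. SAMHD1, which depletes the nucleotides that viruses need, was at 1.59 ± 0.38 (SD, n = 6) in control and 1.27 ± 0.31 (n = 4) in cold PBMC, the highest ratio to the pool in either group. BST2 (tetherin), which holds budding virions on the cell, differed by -0.17 (SE 0.13) in the ratio and by -0.62 (SE 0.19) in Cy3 alone, where its unadjusted limma p was 0.00647. Leaving out cold replicate 3 gave -0.061 in the ratio, and leaving out cold replicate 1 gave -0.28. In log2 Cy3 intensity, BST2 ranged from 9.65 to 10.38 on the control arrays with a median of 10.22, and was at 9.87, 9.67, 8.96 and 9.59 on the cold arrays, so that every cold ferret lay below the control median and cold replicates 3 and 4 below every control. EPSTI1, an interferon-induced gene of monocytes and other cells, ranged from 0.23 to 0.51 on the control arrays with a median of 0.35, and was at 0.19, 0.18, 0.17 and 0.41 on the cold arrays. Its difference was -0.13 (SE 0.09) in the ratio, -0.39 (SE 0.21) in Cy3 alone and -0.76 (unadjusted limma p 0.00688) with the scanner software's processed signals.

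IFI6, a membrane protein that limits viral replication compartments, was the only gene far below the pool, at -2.08 ± 0.56 (SD, n = 6) in control and -2.06 ± 0.10 (n = 4) in cold PBMC. Its difference was 0.02 (SE 0.25) in the ratio, whereas in Cy3 alone it was -0.33 (SE 0.10) with an unadjusted limma p of 0.00620. With the ratios scaled per array it was 0.84 (unadjusted limma p 0.115), opposite in sign to Cy3 alone. In log2 Cy3 intensity, IFI6 ranged from 17.39 to 17.69 on the control arrays with a median of 17.59, and was at 17.15, 17.50, 17.21 and 17.09 on the cold arrays, where all but cold replicate 2 lay below every control. ISG20, an exonuclease that degrades RNA, was the effector with the largest difference upwards, at 0.40 ± 0.35 in control and 0.76 ± 0.24 in cold PBMC, a difference of 0.36 (SE 0.18) in the ratio and 0.38 (SE 0.31) in Cy3 alone, and it was the single effector that was higher in Cy3 alone. RSAD2 (viperin), which makes a chain-terminating nucleotide, differed by 0.11 (SE 0.14) with 2 of its 4 probes above the filter, and IFI35, a partner of NMI, by 0.08 (SE 0.12). When 1 array was left out, RSAD2 ran from 0.0095 (without cold replicate 4) to 0.22 (without cold replicate 3) and IFI35 from 0.0032 (without cold replicate 2) to 0.16 (without cold replicate 3). PARP9, an ADP-ribosyltransferase that acts with DTX3L, differed by -0.02 (SE 0.08). LGALS9 (galectin-9), the secreted lectin of the list, differed by 0.12 (SE 0.13) in the ratio and by -0.49 (SE 0.24) in Cy3 alone. Both PARP9 and LGALS9 had Cy5 above background on only 3 arrays.

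Relative to the pool, 27 of the 32 genes had a control mean above 0 and 5 below, and in cold PBMC 25 were above and 7 below. IFIT3, DDX58, CMPK2 and IFIT5 had a mean above the pool in control and below it in cold PBMC, and SOCS1 and RSAD2 the reverse.

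Within an array, the 24 sensors and effectors mostly lay on 1 side of the control mean, in both groups. Below that mean were 4, 23, 2, 20, 16 and 11 of the 24 on control replicates 1 to 6, and 17, 21, 23 and 5 on cold replicates 1 to 4. As the median of each array's deviations from the control mean, the control arrays lay at 0.24, -0.26, 0.27, -0.20, -0.05 and 0.07 for replicates 1 to 6, and the cold arrays at -0.37, -0.40, -0.57 and 0.10 for replicates 1 to 4. The medians over all genes stayed within -0.03 and 0.03 on every array. Cold replicate 4 thus stood with the controls for these genes, and cold replicate 3 was the lowest array. Of the 24 genes, cold replicates 1, 2 and 3 were below every control in 9, 10 and 16, and cold replicate 4 in 0, beside 28.0%, 12.5%, 26.2% and 19.4% of all genes on cold replicates 1 to 4. Above every control were 2, 1, 0 and 5 of the 24 on these arrays, beside 23.0%, 18.1%, 27.5% and 21.0% of all genes. Cold replicate 4 was below the control median in 6 of the 24. Cold replicate 3 was the lowest of the 10 arrays for 15 of the 32 genes, whereas it was the lowest for 15.4% of all genes.

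**Figure D3:**
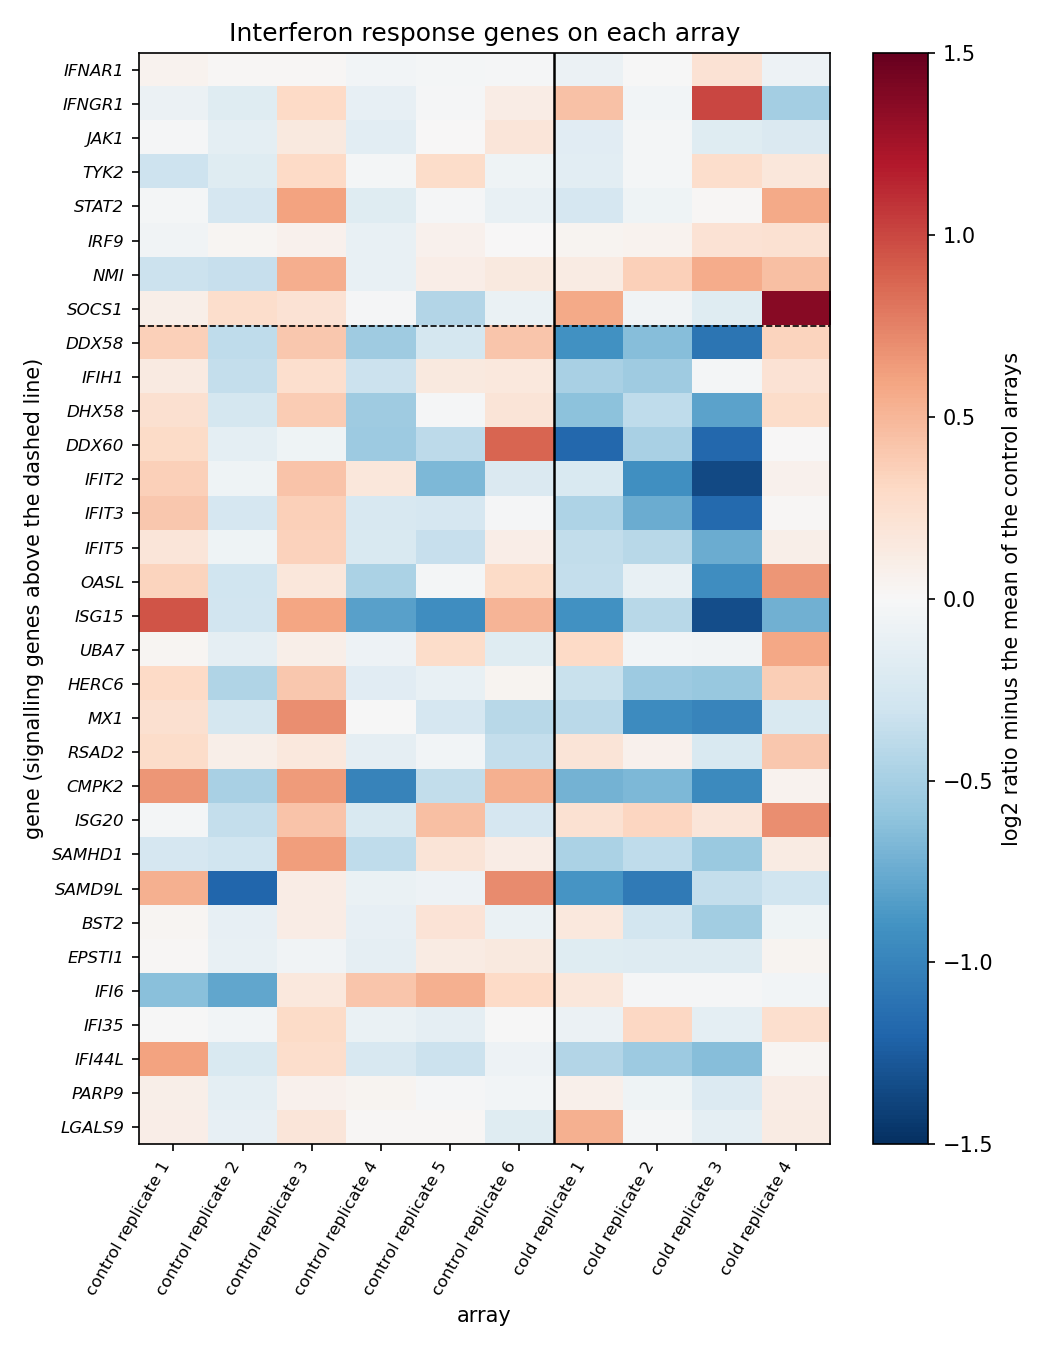
Log2 ratio of each of the 32 genes (rows) on each array (columns) less the mean of the 6 control arrays, with blue below and red above that mean, control arrays left of the solid line and signalling genes above the dashed line. Below the dashed line, cold replicates 1, 2 and 3 are mostly blue, with medians of -0.37, -0.40 and -0.57, and cold replicate 4 is mostly pale, with a median of 0.10, while control replicates 2 and 4 are mostly blue and control replicates 1 and 3 mostly red.

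The counts of the list turned on 1 cold ferret. Without cold replicate 4, 5 genes were lower at an unadjusted limma p under 0.01, namely DDX58 at -0.88, DDX60 at -0.95, IFIT3 at -0.79, IFIT5 at -0.51 and MX1 at -0.78, beside 7.82% of all genes in either direction and 2.90% in the lower one. The groups then did not overlap for 5 genes, namely DDX58, EPSTI1, IFI44L, IFIT3 and IFIT5, beside 8.64% of all genes. No gene of the list passed the adjusted threshold without it either, by limma. Without cold replicate 3 the median difference was -0.08, 0 genes passed an unadjusted limma p of 0.01, and IFIT2 was at -0.36 and IFIT5 at -0.23. SAMHD1 was at -0.19 without control replicate 3, and IFNGR1 at 0.46 without cold replicate 4.

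The spread within groups was wide for these genes. The pooled within-group SD had a median of 0.33 over the 32 genes and 0.19 over all genes. ISG15 was the most variable, with an SD of 0.67, above 98.2% of all genes, followed by CMPK2 at 0.62 and SAMD9L at 0.58. IRF9 at 0.08 and IFNAR1 at 0.09 varied least. The precision of each difference is limited by the number of arrays. The limma p-values set each difference against the spread within groups. With 1 array per ferret, that spread holds differences between ferrets and between arrays, which cannot be told apart.

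Markers of blood cell types moved between the same arrays. The mean log2 ratio of 7 measured T cell markers of 9 listed ran from 0.05 to 0.34 on the control arrays and from -0.67 to 0.12 on the cold arrays, the lowest being cold replicate 3. For 6 of 10 neutrophil markers it ran from 0.71 to 1.42 and from 1.70 to 2.01, and for 6 of 8 monocyte markers from -0.03 to 0.52 and from 0.42 to 1.10. For 4 of 6 erythroid markers it ran from 0.18 to 1.12 and from -0.85 to -0.06, and for 5 of 7 platelet markers from -0.05 to 1.25 and from 0.74 to 1.77. B cell markers (5 of 7 measured) had a median difference of -0.06 in the ratio and -0.56 in Cy3 alone, and NK cell markers (5 of 8) of 0.09 and -0.15. T cell markers had -0.44 and -0.69. Of the 7 markers of plasmacytoid dendritic cells, the blood cells known for the strongest type I interferon output, IL3RA and TCF4 alone were measured, with a median difference of 0.01 in the ratio and -0.14 in Cy3 alone. On cold replicate 4, which stood with the controls for the interferon response genes, the neutrophil markers were at 1.70, with the other cold arrays and above every control, and the T cell markers at -0.02, below every control. In bulk RNA, fewer cells of a type and less RNA per cell cannot be told apart, and the part of cell composition in the differences above was not tested.

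Other genes of the pathway were taken from a second list of 101 symbols, of which 49 were found and 43 measured. Of the 43, 18 were lower and 25 higher, with a median difference of 0.03. At an unadjusted limma p under 0.01, 2 were lower and 2 higher, a share close to the 8.64% of all genes, and 0 passed the adjusted threshold. In Cy3 alone 5 were lower (TRIM22, ZC3HAV1, USP18, PIAS1 and RTP4) and 1, LAP3, was higher at that unadjusted threshold, beside 9.87% of all genes, and 2 passed the adjusted one, TRIM22 and ZC3HAV1, beside 2.83% of all genes. PIAS1, a SUMO ligase that restrains STAT signalling, differed by -0.38 (SE 0.10) in Cy3 alone and -0.12 (SE 0.09) in the ratio. RTP4, an interferon-induced chaperone of receptors, differed by -0.65 (SE 0.18) in Cy3 alone, without overlap between the groups, and by -0.34 (SE 0.13) in the ratio. In Cy3 alone the groups did not overlap for 7.02% of all genes. ZC3HAV1 (ZAP), which binds CpG-rich viral RNA, fell by 0.56 in Cy3 alone (adjusted limma p 0.0473), and its difference in the ratio was -0.24 (SE 0.14).

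TRIM22, an interferon-induced antiviral ubiquitin ligase, had the lowest p of the 43 measured genes of the second list. It ranged from 1.28 to 1.79 on the control arrays with a median of 1.48, and was at 0.60, 0.68, 0.31 and 0.88 on the cold arrays. All 4 cold ferrets, cold replicate 4 included, lay below all 6 controls. The difference was -0.88 (SE 0.13, unadjusted p 4.31e-05 and adjusted p 0.0576 from limma), the exact two-sided permutation p was 0.00476, the smallest that the design allows, and in Cy3 alone TRIM22 fell by 0.89 (adjusted limma p 0.0339). In the ratio the groups did not overlap for 2 of these 43 genes, TRIM22 and PTPN11, beside 5.22% of all genes.

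LAP3, an interferon-induced aminopeptidase, ranged from 0.06 to 0.82 on the control arrays with a median of 0.29, and was at 0.71, 1.09, 1.15 and 1.43 on the cold arrays, a difference of 0.73 (SE 0.17, unadjusted p 0.00126 and adjusted p 0.0736 from limma). TRAF3, the adaptor between viral sensors and the kinases that induce interferon, was at 1.33, 0.44, 1.24 and 0.86 on the cold arrays, against 0.17 to 0.66 in control PBMC, a difference of 0.60 (SE 0.17, unadjusted p 0.00474 and adjusted p 0.0942 from limma). In both genes 3 cold arrays lay above every control and the fourth lay inside the control range. PTPN11 (SHP2), a phosphatase in cytokine receptor signalling, did not overlap between the groups in the ratio, with a difference of -0.23 (SE 0.07, unadjusted p 0.00830 and adjusted p 0.110 from limma), but differed by only -0.05 (SE 0.09) in Cy3 alone. When 1 array was left out, TRIM22 and LAP3 stayed under an unadjusted limma p of 0.01 each time, TRAF3 lost that call in 4 of 10 cases (without control replicates 1 and 2 and cold replicates 1 and 3) and PTPN11 in 8 of 10 (all but cold replicates 2 and 3). LAP3 also lost it in 4 alternatives, namely the authors' deposited table (0.44, unadjusted limma p 0.163), arrays centred on their median (0.03, p 0.944), the scanner software's processed signals (0.62, p 0.0145) and ratios scaled per array (0.48, p 0.0169). TRAF3 lost it in Cy3 alone (0.37, p 0.0177), the authors' table (0.66, p 0.0107), processed signals (0.33, p 0.0582), median centring (0.32, p 0.0487) and the methods' t-test. PTPN11 lost it in 9 alternatives, namely Cy3 alone (p 0.601), no background subtraction (p 0.0165), processed signals (p 0.0691), median centring (p 0.0249), the authors' table (p 0.0392), probes above background on all 10 arrays (p 0.0135), ratios scaled per array (-0.11, p 0.145), the filter on Cy5 (p 0.0161) and the replicate number as a block (p 0.0567), all from limma and unadjusted. TRIM22 kept it under every alternative computed.

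Genes upstream and in the feedback arm of the pathway differed in both directions. JAK2, the kinase on the type II receptor, differed by 0.42 (SE 0.14, adjusted p 0.118 from limma), and IRF3, the factor that sensors activate to induce interferon, by -0.17 (SE 0.11). SOCS3, a feedback inhibitor of cytokine receptors, differed by 0.47 (SE 0.17). USP18, which removes ISG15 from proteins and shields the type I receptor, differed by -0.32 (SE 0.11) in the ratio and -0.81 (SE 0.20) in Cy3 alone. In Cy3 alone its groups did not overlap, as for 7.02% of all genes, and its unadjusted limma p was 0.00159. IFNL3, the one interferon gene that was measured, lay between -0.07 and 0.18 on all 10 arrays, with a difference of -0.03 (SE 0.08).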

How the data were processed

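PBMC RNA of 6 control and 4 cold ferrets was hybridised on 10 custom Agilent arrays, 1 per ferret and each on its own slide, all scanned on 1 day. The authors deposited, per the file headers, spot intensities from Feature Extraction 10.7.3.1 (median signal and local background of Cy3 and Cy5, processed signals, and flags). A deposited table by the authors holds 1 log2 value per sequence and array, whose scale and centring per array are not stated (column medians 7.86 to 8.78). Its cold minus control differences correlated with those of the ratios at 0.57 across sequences, so single genes can differ in sign, and it served as an alternative.

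Here, limma 3.58.1 (R 4.3.3) was used for normexp background correction with an offset of 50, and log2 ratios of Cy3 to Cy5 were normalised by loess within arrays (span 0.3, 4 iterations). Control spots and flagged outliers were left out, spots were averaged per probe and probes per gene. Probes stayed in if, on 4 or more arrays, the software's Cy3 flag for signal well above background was set for a share of 0.5 or more of their spots. Of 45328 target sequences, 21104 were named through the RefSeq ferret gene table (assembly ASM1176430v1.1), as 12918 symbols. The others kept their accession. No probe, promoter or protein sequence was used.

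Cold and control were compared with limma (lmFit, eBayes) over all 26303 genes, 9276 of them with a symbol, with Benjamini-Hochberg adjustment at 0.05, and at an unadjusted 0.01. Single genes also had an exact two-sided permutation test. Alternatives were other background corrections and normalisations, Cy3 alone, the deposited table, other filters, probe medians, the methods' t-test, array weights, slide position (2 control and 2 cold arrays at the second position) or replicate number as a block, and leaving out each array. Ratios scaled per array, a filter on Cy5 and a threshold of 0.05 were chosen after seeing the data. All 32 measured genes are named, with values by array for the 10 with the largest differences and any gene past 0.01 or without overlap in the ratios. Other pathway genes are named where past 0.01 in the ratio or in Cy3 alone, with JAK2, IRF3 and interferon genes. Further genes were picked once their values were known. The members and lists were chosen with earlier results of these data known.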

Additional observations from a re-analysis of the deposited data

Results flagged for a closer look

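In 4 of the 64 sets of arrays examined (each of the 32 genes in each group), 1 array stood apart from the rest of its group by the gap to its nearest neighbour over the group's range. Chance gives about 1 in 20 such sets. STAT2 was at 1.48 on control replicate 3, with the next control at 0.85. IFI35 was at 0.78 on the same array, with the next control at 0.49. EPSTI1 was at 0.41 on cold replicate 4, with the other cold arrays between 0.17 and 0.19. IFI6 was at -1.91 on cold replicate 1, with the other cold arrays between -2.12 and -2.10.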

How the results depend on the processing

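No interferon response gene passed the adjusted limma threshold under any alternative computed. Counts below 0.01 are of unadjusted p. The number of interferon response genes lower at that threshold, 0 in the ratios, was 4 in Cy3 alone, 4 with arrays centred on their median, 3 in the authors' deposited table, 2 with the scanner software's processed signals (EPSTI1 and MX1), 2 with ratios scaled per array, and 0 to 5 when 1 array was left out. The shares of all genes lower at 0.01 in the 5 alternatives named, in that order, were 4.36%, 3.60%, 2.24%, 3.29% and 2.22%. Called in the authors' table were MX1 at -1.25, IFIT2 at -1.23 and IFIT3 at -1.11. With arrays centred on their median the same genes and BST2 were called. The number higher was 1 with probes above background on all 10 arrays, beside 5.78% of all genes. It was 0 to 1 when 1 array was left out, with NMI called without control replicate 3, beside 4.24% of all genes higher there. At a threshold of 0.05, 4 were lower and 1 higher. The number without overlap was 1 (IRF9) with probes above background on all 10 arrays, 1 (MX1) with ratios scaled per array, and 0 to 5 when 1 array was left out, with SAMD9L alone without control replicate 2 and JAK1 alone without cold replicate 2. In these settings all genes without overlap made up 5.55% (probes above background on all 10 arrays), 4.45% (scaled ratios), 5.91% (control replicate 2 left out), 13.0% (cold replicate 2 left out) and 8.64% (cold replicate 4 left out). The median difference was -0.39 in Cy3 alone, -0.54 in the authors' table, -0.44 with processed signals (all genes -0.10) and -0.94 with arrays centred on their median (all genes -0.43), and ran from -0.20 to -0.08 when 1 array was left out. Lower means numbered 25, 24, 27 and 31 of the 32 genes in these 4, and 25 with ratios scaled per array. The 115 and 744 calls over all genes at an adjusted limma p of 0.05, with probes above background on all 10 arrays and in Cy3 alone, compare with 0 in the ratios, 1 with ratios scaled per array, 5 with slide position as a block, and 0 to 1272 when 1 array was left out (cold replicate 2 gave 1272 calls, control replicate 5 gave 633 and cold replicate 1 gave 12). All genes at an unadjusted p under 0.01 numbered 2272, against 1505 with processed signals, 1163 with median centring and 1093 in the authors' table.

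Other pathway genes lower at 0.01, 2 in the ratios, numbered 5 in Cy3 alone, 4 with median centring, 4 with scaled ratios, 1 with Cy5 above background on at least 4 arrays and 1 to 3 when 1 array was left out. The shares of all genes lower were 3.43% in the ratios and, in the order given, 4.36%, 3.60%, 2.22% and 3.70%. With 1 array left out these shares ran from 1.81% to 7.19%. Those higher, 2 in the ratios, numbered 1 with processed signals, 0 with median centring, 1 in Cy3 alone, 0 in the authors' table, 4 with probe medians, 1 with scaled ratios, 1 with the methods' t-test, 4 with array weights, and 1 to 4 when 1 array was left out. The shares of all genes higher were 5.21% in the ratios and, in the order given, 2.43%, 0.82%, 5.51%, 1.92%, 5.14%, 3.69%, 4.03% and 5.75%. With 1 array left out they ran from 3.03% to 7.05%. The share of all genes under 0.01, 8.64% in the ratios, ranged from 4.16% (authors' table) to 11.0% (array weights) over the alternatives and from 4.85% (cold replicate 3 left out) to 12.9% (cold replicate 2 left out).

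The replicate numbers did not pair the arrays, since same-numbered arrays correlated at -0.30, 0.54, 0.10 and -0.19 in their deviations. With the replicate block, 2459 of all genes were under 0.01, 4.23% lower and 5.12% higher. Of the interferon response genes 0 were, and the other pathway genes numbered 1 lower and 6 higher.

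Several genes changed sign, among them NMI, SOCS1 and ISG20 with arrays centred on their median. Without background subtraction IFNAR1 was at -0.0073 and IFI6 at -0.15. With processed signals IFNAR1 was at -0.31, TYK2 at -3.2e-05, STAT2 at -0.084, UBA7 at -0.38, RSAD2 at -0.015, IFI6 at -0.22, IFI35 at -0.036 and LGALS9 at -0.35. Arrays centred on their median gave IFNAR1 -0.13, IFNGR1 -0.64, TYK2 -0.95, STAT2 -0.91, NMI -0.35, SOCS1 -0.23, UBA7 -0.23, RSAD2 -0.068, ISG20 -0.10, IFI6 -1.21, IFI35 -0.94 and LGALS9 -0.47, where all genes lay at -0.43. Scaled ratios gave IFNAR1 -0.038, IFNGR1 -0.11, TYK2 -0.14, STAT2 -0.25, IFI35 -0.091 and LGALS9 -0.076. The authors' table gave IFNGR1 -0.19, TYK2 -0.42, STAT2 -0.42, IFI6 -0.57, IFI35 -0.40, PARP9 0.32 and LGALS9 -0.10. Cy3 alone gave STAT2 -0.025, UBA7 -0.17, RSAD2 -0.38, IFI6 -0.33, IFI35 -0.072 and LGALS9 -0.49. Array weights gave IFNAR1 -0.017 and PARP9 0.00042, slide position as a block gave STAT2 -0.0049 and IFI6 -0.020, and probes above background on all 10 arrays gave PARP9 0.036. When 1 array was left out, IFNAR1 ran from -0.055 to 0.046, IFNGR1 from -0.040 to 0.46, TYK2 from -0.0027 to 0.14, STAT2 from -0.10 to 0.19, OASL from -0.47 to 0.064, IFI6 from -0.13 to 0.13, PARP9 from -0.061 to 0.041 and LGALS9 from -0.016 to 0.21. The cause of these changes was not tested. Dim Cy5 limits IRF9, PARP9 and LGALS9, and the 10 arrays limit every value.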
